A study of Mus musculus with 20 samples.

Results

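The mRNAs of the membrane chemokines Cxcl16 and Cx3cl1, of the CXCL16 receptor Cxcr6 and of the shedding protease Adam10 were followed in an experiment that recovered mouse RNA with iron regulatory protein 2 (IRP2). IRP2 is a cytoplasmic protein that binds iron-responsive elements, short hairpins in the UTRs of transcripts such as those for ferritin and the transferrin receptor. CXCL16 and CX3CL1 are the chemokines that are made as membrane proteins, with the chemokine domain held above the cell surface on a mucin stalk. Cells carrying the receptor bind them in this anchored form, and the protease ADAM10 cuts the stalk and sets a soluble chemokine free. CXCL16 is bound by CXCR6 on T and natural killer T cells, is made by macrophages, dendritic cells and endothelium, and also acts as a scavenger receptor for oxidised lipoprotein. CX3CL1, also called fractalkine, is known from neurons and endothelium and is bound by CX3CR1 on monocytes and microglia.

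The members were all probe sets that the platform annotation gives to these 4 genes, 12 of 45037 after Affymetrix controls were set aside: 2 for Cxcl16, 2 for Cxcr6, 4 for Adam10 and 4 for Cx3cl1. Of these, 9 passed the filter on dim signals, which asked for a value at or above the median of its own array on at least 2 of 20 arrays and which 30153 probe sets passed. The dim ones, Cxcr6 1422812_at, Adam10 1450105_at and Cx3cl1 1421610_at, reached the median on 0 arrays. The genes were chosen by the Cxcl16 ratios of IRP2 reaction to control reaction, with their values known, so the ratios of the members are described and not tested.

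Purified His-tagged IRP2 made in E. coli was added to total RNA of C57BL6/J mice and pulled down by a monoclonal anti-His antibody. The control reaction left IRP2 out. The IRP2 and control groups of duodenum, liver and spleen used RNA pooled from 4 mice each that had eaten an iron-poor diet (under 10 mg per kg) for 21 days from weaning. Those of bone marrow and brain used RNA pooled from 6 mice each, aged 8 to 10 weeks, that had an iron-normal diet, and all pools mixed the sexes. Each of the 10 groups has 2 arrays, and tissue cannot be told apart from diet and age between the sets of tissues. Because the binding took place in extracted RNA with added protein, a ratio measures recovery by IRP2 in the tube, and no treatment of the mice is compared. The sources used here do not say whether the replicates of a tissue came from 1 pool or from separate ones. P-values therefore describe the spread between these arrays alone, and that spread may be technical.

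The array medians lay between 5.65 and 5.71 (log2) in duodenum, liver and brain replicate 1 and between 5.39 and 5.55 in spleen, bone marrow and brain replicate 2, so levels set across these ranges may carry that difference. Bone marrow control replicate 1 stood apart: it correlated with the spleen mean at a Spearman rho of 0.908, while the rest of that tissue's arrays had 0.824 to 0.825, and its myeloid markers averaged 11.8, against 10.3 on control replicate 2. The 6 measured liver markers averaged 4.74 and 4.68 on the spleen control and IRP2 arrays of replicate 1 but 7.07 and 7.03 on those of replicate 2. Of the markers of each labelled tissue, 6 of 7 were highest there for duodenum, 6 of 6 for liver, 5 of 6 for spleen, 7 of 7 for bone marrow and 3 of 6 for brain, where Gfap, Mbp and Gad1 were not. Markers of pancreas acinar cells were highest in duodenum, 4 of 4. The part of these differences in the results was not tested. In such bulk RNA, fewer cells of a type and less RNA per cell cannot be told apart.

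Cxcl16 RNA was recovered far more with IRP2 than without it in duodenum, liver and spleen, on both of its probe sets. On probe set 1449195_s_at this also held in bone marrow and brain, and the mean over the 5 tissues was 2.52 on the log2 scale, a 5.73-fold ratio that ranked 3 from the top of 30153 tested probe sets. On probe set 1418718_at the mean was 1.31, a 2.48-fold ratio at rank 25, and bone marrow showed no separation of the reactions. Tfrc, the transferrin receptor mRNA with its known iron-responsive elements, had a mean of 3.30 on 1422966_a_at, taken as its probe set with the highest mean ratio. The suffix _s_at marks an Affymetrix probe set whose probes can match more than 1 transcript, and the annotation ties both Cxcl16 probe sets to the same transcript record.

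On 1449195_s_at, the duodenum IRP2 arrays read 9.67 and 10.14 and the controls 6.57 and 6.80 (log2 levels, replicates 1 and 2). The spleen IRP2 arrays read 10.10 and 10.20 and the controls 6.74 and 6.83. In both tissues the lower IRP2 array lay above the higher control array by more than 2 log2 units. The ratio of each replicate pair was 3.11 and 3.35 in duodenum, with a mean of 3.23 ± 0.17 (SD, n = 2 pairs) or 9.36-fold. In spleen the pair ratios were 3.36 and 3.37, with a mean of 3.37 ± 0.0086 (SD, n = 2 pairs) or 10.3-fold, although the replicates differed in their liver markers. Each of these tissue ratios ranked 3 of 30153.

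The liver IRP2 arrays read 8.52 and 9.12 and the controls 6.29 and 6.36 on 1449195_s_at, which gave pair ratios of 2.23 and 2.76 and a mean of 2.49 ± 0.38 (SD, n = 2 pairs), 5.63-fold. The bone marrow IRP2 arrays read 6.50 and 6.91 and the controls 4.49 and 5.12. Liver and bone marrow thus kept their reactions apart, bone marrow from a much lower control level. The bone marrow pair ratios were 2.01 and 1.79, with a mean of 1.90 ± 0.15 (SD, n = 2 pairs) or 3.74-fold. The reactions were thus about as far apart in the pair without control replicate 1. The brain IRP2 arrays read 6.11 and 6.54 against controls at 4.72 and 4.71, a mean ratio of 1.61 ± 0.31 (SD, n = 2 pairs) or 3.05-fold. The brain control mean of 4.71 lay below the level that 10% of tested probe sets stay under in brain controls, so the brain ratio starts from a dim signal.

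IRP2 arrays lay above both controls in 5 of 5 tissues on 1449195_s_at, and 10 of 10 replicate pairs had a ratio above 0. Of all tested probe sets, 0.229% had IRP2 arrays above the controls in every tissue; the choice of Cxcl16 used this contrast and nothing is read from the share. The tissue means ran from spleen and duodenum through liver and bone marrow to brain. Spleen and duodenum differed by less than the SD of the duodenum pairs, and the highest brain pair ratio of 1.83 lay above the lower bone marrow pair ratio of 1.79.

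On 1418718_at, the spleen IRP2 arrays read 10.07 and 10.40 and the controls 7.37 and 7.42, with pair ratios of 2.70 and 2.98 and a mean of 2.84 ± 0.20 (SD, n = 2 pairs), 7.16-fold. The duodenum IRP2 arrays read 9.54 and 9.61 and the controls 7.56 and 7.62, with pair ratios of 1.98 and 1.98 and a mean of 1.98 ± 0.0013 (SD, n = 2 pairs), 3.95-fold. The liver IRP2 arrays read 8.64 and 8.48 and the controls 7.33 and 7.34, with pair ratios of 1.31 and 1.14 and a mean of 1.22 ± 0.12 (SD, n = 2 pairs), 2.34-fold. In all 3 tissues of the iron-poor diet the reactions were well apart, with spleen highest and liver lowest and no overlap of their pair ratios. In brain the IRP2 arrays read 6.81 and 7.41 and the controls 6.70 and 6.50, a mean ratio of 0.51 ± 0.57 (SD, n = 2 pairs) carried mostly by replicate 2, whose pair ratio was 0.91 against 0.11.

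Bone marrow was the exception on 1418718_at. Its IRP2 arrays read 7.53 and 7.52 and lay between the controls at 7.35 and 7.72, and the pair ratios were 0.18 and -0.20. The mean of -0.01 ± 0.27 (SD, n = 2 pairs) changed sign to 0.09 after quantile normalization of all arrays, so it has no direction. Over all tissues, 9 of 10 pairs had a ratio above 0 on this probe set.

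**Figure D1:**
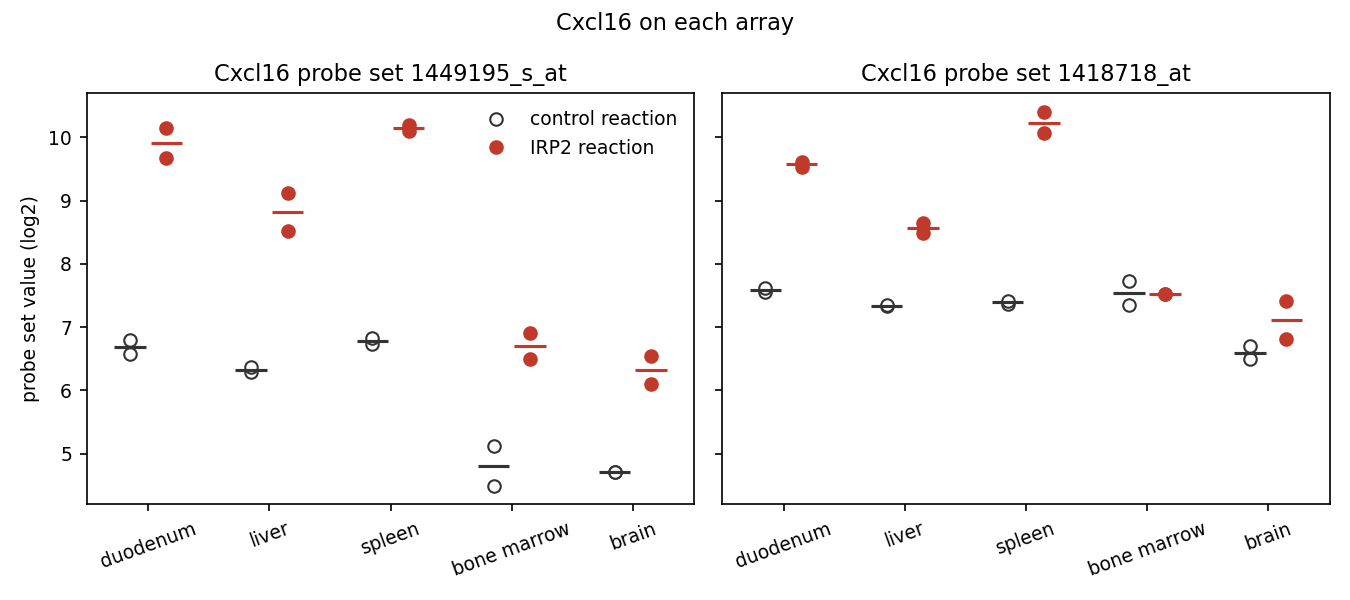
Level of each Cxcl16 probe set (log2, vertical axis) on all 20 arrays by tissue, with open circles for control reactions, filled circles for IRP2 reactions and bars for the means of 2 arrays; levels are to be compared within a panel only. On 1449195_s_at IRP2 arrays lie above the controls in 5 of 5 tissues, while on 1418718_at the bone marrow arrays overlap between 7.35 and 7.72.

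The Cxcl16 probe sets differed in the size of their ratios. The ratio on 1449195_s_at was larger in 10 of 10 replicate pairs, by 0.40 to 1.99 on the log2 scale and by 1.21 on average. The difference was smallest in spleen, at 0.53 ± 0.19 (SD, n = 2 pairs), and largest in bone marrow, at 1.91 ± 0.12 (SD, n = 2 pairs). Between them lay brain at 1.09 ± 0.26, duodenum at 1.25 ± 0.17 and liver at 1.27 ± 0.50 (SD, n = 2 pairs each), which did not separate from each other by their spread. The ratios of both probe sets ran together over the 10 pairs, with a Pearson r of 0.912 as a description of pairs that share arrays.

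The control reactions also differed between the probe sets in how they spread over tissues. On 1449195_s_at the control means were 6.78 ± 0.06 in spleen, 6.68 ± 0.16 in duodenum, 6.33 ± 0.05 in liver, 4.80 ± 0.44 in bone marrow and 4.71 ± 0.0020 in brain (SD, n = 2 arrays each). That is the same tissue order as for the ratios, and the ranges of spleen and duodenum overlapped, as did those of bone marrow and brain. On 1418718_at the 8 control arrays outside brain lay between 7.33 and 7.72, and the brain controls were lower, at 6.70 and 6.50. So bone marrow, far below liver on 1449195_s_at, was level with it on 1418718_at, as measured in reactions without IRP2. RefSeq places Zmynd15, a zinc finger gene, beside Cxcl16. The Zmynd15 probe set 1438498_at, looked at after the values were seen, had pair ratios between -0.27 and 0.82. Its mean was 0.18 (limma, adjusted p = 0.9997). By tissue the ratio was 0.67 in bone marrow (pairs 0.63 and 0.71) and 0.42 in brain (pairs 0.02 and 0.82). In duodenum, liver and spleen it lay between -0.10 and -0.04. Whether this bears on the Cxcl16 probe sets was not tested.

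Cxcr6, the receptor of CXCL16, showed no such recovery, but its signals were low. Probe set 1425832_a_at reached the array median on 2 of 20 arrays. Its control means of 4.33 in duodenum, 4.28 in liver and 3.89 in brain were dim. Each lay below the level that 10% of tested probe sets stay under in the controls of that tissue, so those ratios say little. On probe set 1425832_a_at the spleen controls read 5.38 and 5.52 and the spleen IRP2 arrays 5.41 and 5.25. The bone marrow controls read 4.80 and 4.76 and the IRP2 arrays 4.34 and 4.2, a mean ratio of -0.51 ± 0.07 (SD, n = 2 pairs). Bone marrow was thus the tissue in which the IRP2 arrays lay below both controls, and in the other tissues the reactions overlapped. The share of all tested probe sets that separate in a single tissue is not given here, so nothing is read from this. The liver IRP2 arrays read 4.81 and 4.37 and the controls 4.40 and 4.15, a mean ratio of 0.32 ± 0.13 (SD, n = 2 pairs). The duodenum arrays lay between 4.23 and 4.33 and the brain arrays between 3.68 and 4.11, with mean ratios of -0.05 and 0.0015, the latter changing sign under other scalings. Over tissues the mean was -0.07, with 5 of 10 pairs above 0. The dim probe set 1422812_at had its highest control mean in spleen, 4.81 ± 0.42, against 2.26 to 2.81 elsewhere, and tissue ratios from -0.25 to 0.42.

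Adam10, the protease that sheds both chemokines, was bright on probe set 1428103_at in every tissue, with controls between 8.99 and 10.85. The duodenum IRP2 arrays read 10.28 and 10.91 and the controls 9.95 and 10.61. The spleen IRP2 arrays read 10.93 and 10.71 and the controls 10.67 and 10.85. The reactions overlapped in both tissues, with mean ratios of 0.32 ± 0.02 and 0.06 ± 0.28 (SD, n = 2 pairs each). The liver IRP2 arrays read 8.71 and 9.35 and the controls 8.99 and 9.29, and the brain IRP2 arrays 9.64 and 9.84 and the controls 9.93 and 9.92. Those means were -0.11 ± 0.24 and -0.18 ± 0.15 (SD, n = 2 pairs each).

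In bone marrow the Adam10 IRP2 arrays read 9.57 and 10.07 and the controls 10.76 and 9.92 on 1428103_at. The pair with control replicate 1, the array that stood apart, gave -1.18 and the other pair 0.14, so the mean of -0.52 ± 0.94 (SD, n = 2 pairs) rests on that array. The mean over tissues was -0.09 on 1428103_at, -0.09 on 1450104_at and 0.02 on 1460083_at. The tissue ratios of 1450104_at ran from -0.23 to 0.04, those of 1460083_at from -0.22 to 0.20, and those of the dim 1450105_at from -0.13 to 0.18. None of the 4 probe sets had IRP2 arrays above both controls in any tissue. The IRP2 arrays lay below both controls in brain on 1428103_at, in duodenum and bone marrow on 1450104_at, and in duodenum on 1450105_at. With 2 arrays per reaction, nothing is read from such separations.

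Cx3cl1, the other membrane-bound chemokine, was not recovered as Cxcl16 was. On probe set 1415803_at the brain IRP2 arrays read 7.86 and 8.82 and the controls 8.26 and 9.0. The duodenum IRP2 arrays read 6.49 and 7.0 and the controls 6.72 and 6.56. Brain had the highest control mean, 8.63 ± 0.52, followed by duodenum at 6.64 ± 0.11, and the reactions overlapped in both tissues. The liver IRP2 arrays read 5.68 and 5.76 and the controls 5.90 and 5.79. The spleen IRP2 arrays read 5.07 and 5.50 and the controls 5.35 and 5.49. In liver both IRP2 arrays lay below the controls, and in spleen they overlapped. In bone marrow the IRP2 arrays, at 6.35 and 5.97, lay above the controls at 5.68 and 5.82. The mean ratio there was 0.41 ± 0.36 (SD, n = 2 pairs), with 0.67 in the pair of control replicate 1 and 0.15 in the other. Here too nothing is read from separations of 2 arrays per reaction.

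The mean over tissues was -0.0078 on 1415803_at, -0.06 on 1415804_at and -0.07 on 1441884_x_at, each with 4 of 10 pairs above 0. On 1415804_at the IRP2 arrays lay below both controls in duodenum, at -0.28 ± 0.05, and in liver, at -0.30 ± 0.05 (SD, n = 2 pairs each). They lay above them in bone marrow, at 0.30 ± 0.31. These separations also rest on 2 arrays per reaction, and nothing is read from them. On 1441884_x_at, whose suffix marks probes that may cross-hybridise, the brain arrays of replicate 1 read 6.55 with IRP2 and 6.57 without, and those of replicate 2 read 5.09 and 5.09. The replicates of brain thus differed far more than the reactions, and the brain mean changed sign under quantile normalization. The dim 1421610_at had tissue ratios from -0.36 to 0.25. Over the 10 probe sets of Cxcr6, Adam10 and Cx3cl1, tissue means ran from -0.52 to 0.42, below the lowest tissue mean of 1.61 on Cxcl16 1449195_s_at. On Cxcl16 1418718_at the bone marrow mean of -0.01 lay inside that range, and the brain mean of 0.51 just above it.

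**Figure D2:**
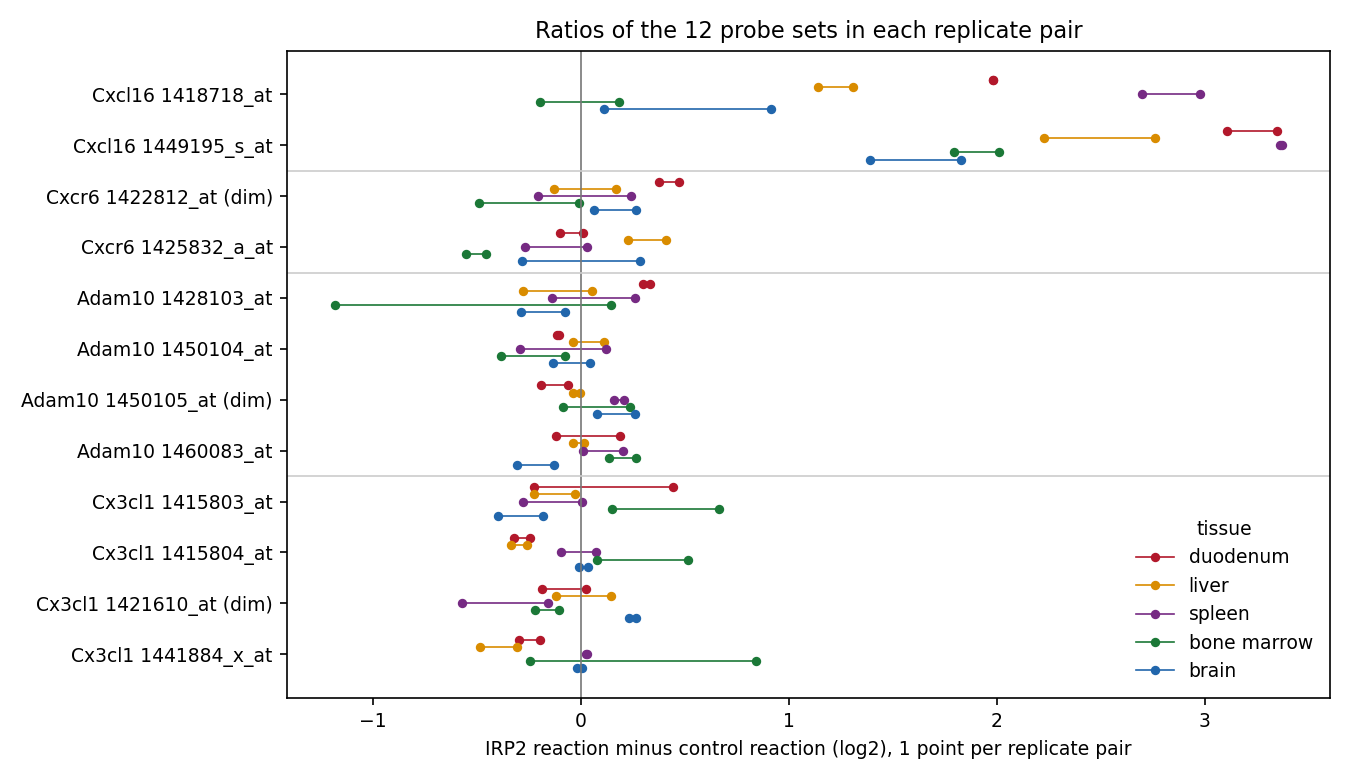
Log2 ratio of IRP2 to control reaction (horizontal axis) in each replicate pair for all 12 probe sets, with a line joining the 2 pairs of a tissue and colours for tissues; dim marks probe sets that did not pass the filter. The Cxcl16 pairs run from -0.20 on 1418718_at in bone marrow to 3.37 on 1449195_s_at in spleen, while pairs of the other genes lie between -1.18 and 0.84.

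Control reactions of liver and duodenum, which share diet and array range, were compared to see where the members differed in RNA recovered without IRP2. In this contrast limma called 17.5% of tested probe sets, and 1 of 9 members. Adam10 1428103_at was lower in liver, with a control mean of 9.14 against 10.28, a difference of -1.13 ± 0.32 (SE) or 45.6% of the duodenum level (limma, adjusted p = 0.0211). The call was lost without duodenum control replicate 2, where the difference was -0.80 (limma, adjusted p = 0.26), without liver control replicate 1, where it was -0.98 (adjusted p = 0.168), and without liver control replicate 2, where it was -1.28 (adjusted p = 0.0551). The other Adam10 probe sets, 1450104_at and 1460083_at, differed by 0.13 and 0.14 and were not called.

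Cx3cl1 1415803_at was lower in liver by a difference of -0.79 ± 0.31 (SE) that missed the threshold (limma, adjusted p = 0.104) and was called when either brain IRP2 array was left out (adjusted p = 0.0457) or all brain arrays were (adjusted p = 0.0149). The Cxcl16 differences were -0.36 on 1449195_s_at (limma, adjusted p = 0.527) and -0.25 on 1418718_at (adjusted p = 0.617), so a difference in control level was not shown for either. Cxcr6 1425832_a_at differed by -0.05 (limma, adjusted p = 0.982). The 1 of 9 members called is no larger a share than the background.

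Genes around these members were taken as 5 lists of 126 genes: chemokine ligands, chemokine receptors, sheddases with their partners and inhibitors, other ADAM10 substrates, and scavenger receptors. Of these, 119 had a probe set with 1 symbol, 102 were tested, and they held 165 tested probe sets. Limma called 0 of the 165 in the mean over tissues, where it called 0.371% of all tested probe sets, and 0 in at least 1 tissue, where it called 0.119%. At an unadjusted p under 0.05, limma had 2 higher and 0 lower in the mean, 1.21% of the list probe sets against 2.87% of all tested, and 10 in at least 1 tissue, 6.06% against 8.88%. With the replicate pair as a block, limma called 2 list probe sets in the mean against 1.21% of all tested, and 1 in at least 1 tissue against 1.14%. The median ratio over the list probe sets was -0.03 and 41.2% lay above 0, against -0.02 and 43% over all tested probe sets.

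The chemokine ligands, 35 probe sets of 25 tested genes, had mean ratios from -0.22 to 0.17 and a median of -0.03. By brightest probe set they ran from Cxcl12, the ligand of CXCR4 that holds blood-forming cells in the marrow, at -0.22, to Ccl28, a chemokine of mucosal epithelium, at 0.16. Other probe sets of these genes read 0.15 and -0.10 for Cxcl12 and -0.13 for Ccl28. The bone marrow pair ratio of Cxcl12 was -1.32 against control replicate 1 and -0.00028 in the other pair. The sheddases, their partners and inhibitors, 47 probe sets of 25 genes, ran from -0.28 to 0.24 with a median of -0.03. Here Adam9, a metalloprotease related to ADAM10, was lowest at -0.28, with a bone marrow pair ratio of -2.14 against control replicate 1 and -0.07 in the other pair. The aspartyl protease gene Bace1 was highest at 0.21, both again by brightest probe set. Other Bace1 probe sets read -0.06 and 0.03.

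The other ADAM10 substrates, 37 probe sets of 20 genes, had a median of 0.01. By brightest probe set, Cdh1, which encodes E-cadherin, was lowest at -0.18, while single probe sets went down to -0.26. Il6ra, which encodes the interleukin-6 receptor alpha chain, was highest, at 0.43 ± 0.13 (SE) on 1452416_at and above 0 in 9 of 10 pairs. This probe set was called with the block (limma, adjusted p = 0.0182) but not without it (adjusted p = 0.50). The other tested Il6ra probe set had a mean ratio of -0.02 and was not called with the block (limma, adjusted p = 0.943). The scavenger receptors, 24 probe sets of 16 genes, had a median of -0.08 and a lowest ratio of -0.22. By brightest probe set they ran from Cd68, a lysosomal protein of macrophages, at -0.20 to Stab1, a receptor of sinusoidal endothelium, at 0.18. In bone marrow the Cd68 IRP2 arrays read 5.23 and 4.70 and the controls 6.07 and 5.41, a ratio of -0.77 that limma called with the block (adjusted p = 0.0399) and not without it (adjusted p = 0.698).

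The chemokine receptors, 22 probe sets of 16 genes, had a median of -0.03. By brightest probe set they ran from Ackr4, a decoy receptor, at -0.16 to Cx3cr1, the receptor of CX3CL1, at 0.66. Other Ackr4 probe sets read -0.04 and -0.06. In spleen the Cx3cr1 IRP2 arrays on 1450020_at read 7.48 and 7.80 and the controls 6.62 and 6.60. In bone marrow they read 7.59 and 7.31 against 6.82 and 5.66, and in brain 7.42 and 6.97 against 5.98 and 6.65. The reactions did not overlap in these tissues, though the brain pair ratios were 1.44 and 0.32. In duodenum the IRP2 arrays read 5.98 and 6.21 against 5.77 and 5.62. In liver they read 5.54 and 5.26 against 5.72 and 5.49, so liver went the other way. Limma called the Cx3cr1 ratio in no single tissue, without or with the block. Its lowest adjusted p was in bone marrow (limma, 0.627 without the block and 0.0505 with it). Nothing is read from the separations alone.

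The mean Cx3cr1 ratio of 0.66 ± 0.14 (SE), 1.58-fold and above 0 in 8 of 10 pairs, missed the threshold (limma, adjusted p = 0.0771) and passed it with the block (adjusted p = 0.00906). It also passed after quantile normalization (limma, adjusted p = 0.0435). It missed the threshold after median centring (limma, adjusted p = 0.115) and with an intensity trend (adjusted p = 0.0712). The same held without the filter on dim signals (limma, adjusted p = 0.102) and with a stricter one (adjusted p = 0.066). Without the bone marrow arrays it was 0.53 (limma, adjusted p = 0.159), and without the brain arrays 0.61 (adjusted p = 0.152), again not called. With each array left out, the mean ran from 0.55 without bone marrow control replicate 2 to 0.78 without bone marrow control replicate 1. Whether it passed the threshold depended on which array was left out, and each such fit left a group with a single array. Of the 4 measured microglia markers, a list that includes Cx3cr1, the median ratio was 0.30 in bone marrow, 0.04 in duodenum, -0.05 in brain, -0.06 in spleen and -0.10 in liver. Of the 7 macrophage markers the median was -0.0012, 0.07, -0.14, -0.0017 and -0.21 in the same order of tissues. Their part in the Cx3cr1 ratio was not tested.

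**Figure D3:**
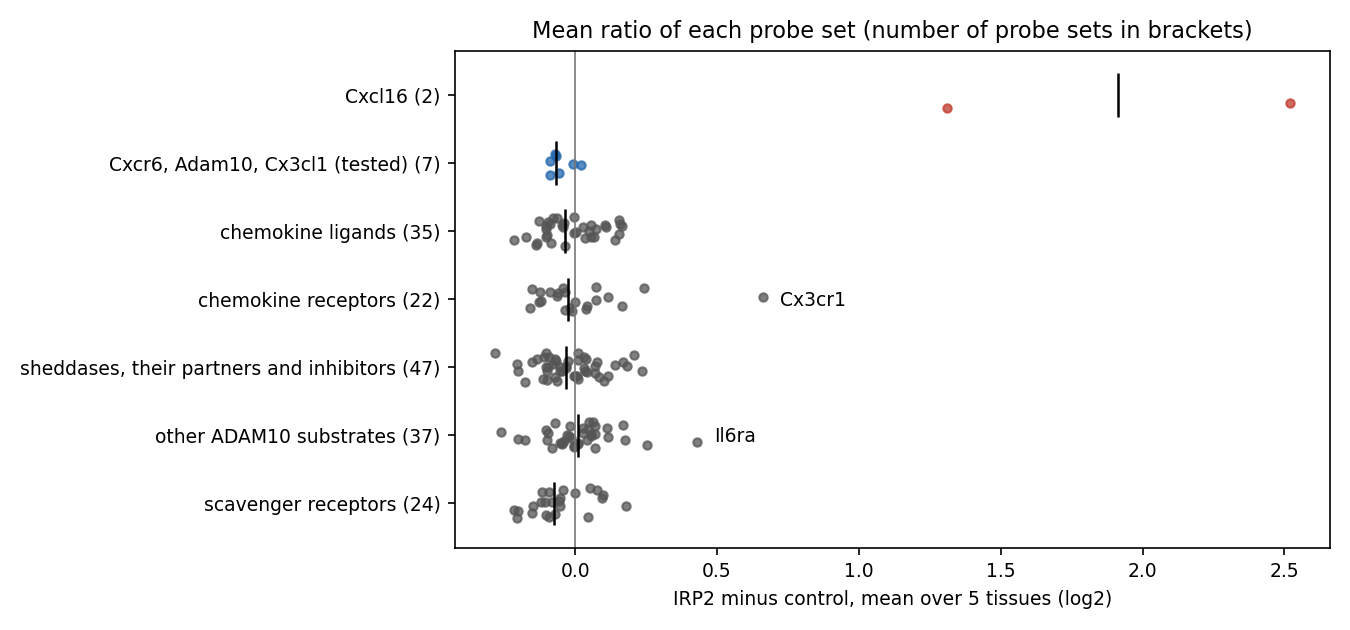
Log2 ratio of IRP2 to control reaction averaged over 5 tissues (horizontal axis) for each tested probe set of the members and of the 5 lists, with a vertical bar at each median and points spread vertically for sight only. The Cxcl16 probe sets lie at 1.31 and 2.52, and the list probe sets between -0.28 and 0.66, the highest being Cx3cr1.

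The genes whose 5 tissue ratios lay nearest to those of Cxcl16 were found by the root mean square difference (log2) over the tested probe sets with 1 symbol. For 1449195_s_at these were Lrpap1, a chaperone of lipoprotein receptors, at 0.59, Nt5c, a nucleotidase, at 0.76, Tfrc at 0.92, Egr2, a zinc finger transcription factor, at 0.98, and Slc40a1, which encodes the iron exporter ferroportin, at 1.09. Their Pearson r with 1449195_s_at over the 10 replicate pairs, which share arrays, was 0.41 for Lrpap1, 0.49 for Nt5c, 0.68 for Tfrc, 0.50 for Egr2 and 0.51 for Slc40a1. Tfrc, on its probe set with the highest mean ratio, had a larger mean ratio than Cxcl16 1449195_s_at in every tissue. In liver replicate 1, however, the Tfrc pair ratio of 2.05 was below the 2.23 of Cxcl16. The Tfrc ratio was 4.09 for spleen, 3.61 for duodenum, 3.08 for brain, 3.05 for bone marrow and 2.68 for liver. The lowest Tfrc mean was in liver, but its liver pairs of 2.05 and 3.31 overlapped those of bone marrow (3.47 and 2.64) and brain (2.55 and 3.61). The lowest Cxcl16 mean was in brain, whose pairs overlapped those of bone marrow. No lowest tissue is set apart for either gene.

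For 1418718_at the nearest were Hmces, a DNA repair gene, at 0.68, Shisa2 at 0.70, Egr2 at 0.72, Pdcl3, a phosducin-like protein gene, at 0.73, and Rapgef2, an exchange factor gene, at 0.74. Their Pearson r with 1418718_at over the 10 pairs ran from 0.53 for Rapgef2 to 0.74 for Hmces. All 5 had their lowest tissue ratio in bone marrow, from 0.06 for Shisa2 to 0.83 for Egr2, as Cxcl16 had on this probe set. They were picked for closeness to these tissue ratios, so nothing is read from the shared order. Of the genes nearest to 1449195_s_at, all but Tfrc were also lowest in bone marrow, such as Lrpap1 at 1.78 and Slc40a1 at 0.61. Egr2 was in both sets, by different probe sets.

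**Figure D4:**
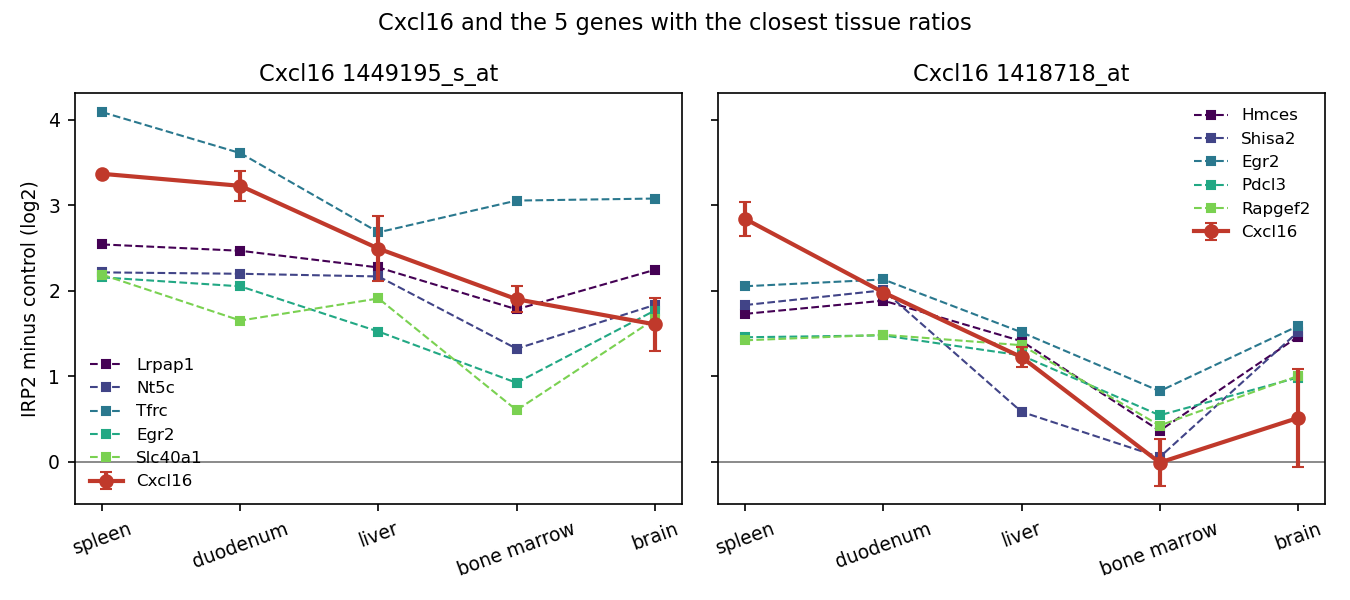
Log2 ratio of IRP2 to control reaction (vertical axis) in each tissue for the Cxcl16 probe sets (red, with the SD of 2 replicate pairs) and the 5 genes with the smallest root mean square difference from each (dashed). Cxcl16 falls from 3.37 in spleen to 1.61 in brain on 1449195_s_at, and lies at -0.01 in bone marrow on 1418718_at.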

How the data were processed

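The deposited table gives log2 probe set values for 20 Affymetrix Mouse Genome 430 2.0 arrays, which the authors made with RMA or with MAS5 in GCOS followed by quantile normalization, per the series' design text and the submitters' processing notes. No versions, and not which arrays had which method, are given in the sources used here. Such summaries can understate ratios of dim probe sets.

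Values were used as deposited. Gene symbols came from the platform annotation (34945 probe sets with 1 symbol, 932 with several, 9160 with none), with IDs checked against RefSeq for 34741. A mean for each of 10 groups was fitted with limma 3.58.1 in R 4.3.3 (10 residual degrees of freedom, prior 5.34) to 30153 probe sets, and p-values were adjusted by Benjamini-Hochberg; an adjusted p under 0.05 was a call. Control ran in parallel with IRP2 per the labels, and deviations of arrays with the same replicate number correlated at 0.251 to 0.923 in every tissue, so numbers were treated as pairs and a fit with tissue and number as a block was added. The number of arrays limits the precision. The fits were tested on simulated data for the mean over tissues only, with the same change set in every tissue. Single-tissue contrasts and the contrast between control tissues were not tested in this way.

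The members and lists were chosen with earlier results of these data known. Named were all member probe sets, called list probe sets, and the highest and lowest gene of each list on its brightest probe set. The 5 genes nearest to each Cxcl16 probe set were also named, and Tfrc on its probe set with the highest mean ratio. Alternatives were the block, quantile normalization, median centring, other filters, an intensity trend, leaving out each array or pair, and, chosen after the data were seen, leaving out bone marrow or brain.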

Additional observations from a re-analysis of the deposited data

Results flagged for a closer look

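Some tissue ratios of IRP2 to control reaction opposed each other, with both replicate pairs above 0 in one tissue and both below 0 in another. None of these differences was tested. For Cx3cl1 1415803_at the ratio was 0.41 in bone marrow and -0.29 in brain, a difference of 0.70. Cx3cl1 1415804_at differed by 0.60 between bone marrow and liver, and Cx3cl1 1441884_x_at by 0.43 between spleen and liver. For Cxcr6 1425832_a_at the ratio was 0.32 in liver and -0.51 in bone marrow, a difference of 0.82. Adam10 1428103_at differed by 0.50 between duodenum and brain, and Adam10 1460083_at by 0.42 between bone marrow and brain. Among the listed genes, Cx3cr1 1450020_at was at 1.21 in bone marrow and -0.20 in liver, a difference of 1.41, and Cd68 1449164_at at 0.26 in duodenum and -0.77 in bone marrow, a difference of 1.04. Of these 8 pairs of tissues, 6 include bone marrow, where log2 ratios of pair 1 had an SD of 0.568 over probe sets, against 0.214 to 0.312 in the other pairs.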

How the results depend on the processing

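The mean Cxcl16 ratios moved little: over all scalings and left-out pairs they stayed between 2.42 and 2.62 on 1449195_s_at, 1.26 and 1.36 on 1418718_at, and 1.16 and 1.26 for their difference. The 0 list probe sets called by limma in the mean over tissues became 2 with the replicate block and 1 after quantile normalization, and 0 to 1 with each array left out. Those called in at least 1 tissue, also 0, became 1 with the block and 0 to 10 with each array left out, 10 without bone marrow control replicate 2. The 1 member called between liver and duodenum controls became 2 without the brain arrays, and 0 to 2 with each array left out. The cause of these changes was not tested. The block cannot be fitted to that contrast, because the tissues share no block. Of the other comparisons of single probe sets, 233 of 240 between control tissues and 271 of 278 mean list ratios kept their direction and side of the threshold. Those that changed direction were not called under either setting: with each array left out, the Cxcr6 1425832_a_at control difference of -0.05 ran from -0.18 to 0.078 (the latter without liver control replicate 2) and the Ackr4 1437669_x_at mean of -0.16 from -0.32 to 0.0026 (the latter without bone marrow control replicate 1). Scaling moved the median of all tested probe sets by at most 0.0439 in size (bone marrow, where it fell by 0.0439 after median centring). The number of arrays, 2 per group, limits the precision, and the dim probe sets say little about their genes.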
